A study of Saccharomyces cerevisiae with 8 samples.

Results

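The genes described here are the budding yeast ribosome assembly factors whose symbol is UTP, NOP, RRP, NOC or NSA followed by a number. Applied to the platform's table of probes and genes, this name rule gave 58 of the 5449 Saccharomyces cerevisiae genes on the array: 18 UTP, 17 NOP, 18 RRP, 3 NOC and 2 NSA genes. Each of the 58 had a single probe set, and all 58 lay above the array background and were tested. The rule used names only and no measured value. Factors of the same pathway with other names, such as PWP2 or MAK21, are outside it and are described separately.

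A eukaryotic ribosome is assembled in the nucleolus. RNA polymerase I makes a long precursor of ribosomal RNA, small nucleolar ribonucleoproteins (snoRNPs) modify it, and assembly factors fold and cut it while ribosomal proteins bind. The UTP proteins, named for the U3 snoRNP, form with others the small subunit processome, which makes the 40S subunit. Many NOP, RRP, NOC and NSA proteins serve the 60S subunit, and some RRP proteins are subunits of the exosome, the RNA-degrading complex that trims precursor ends. In yeast the transcripts of this pathway are known to be made together and to follow growth rate, nutrients and stress.

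The samples were 8 cultures of the laboratory strain DBY7286, each hybridised to its own array. The medium of all 8 contained Ferrozine (1 mM), which chelates ferrous iron, copper (1 µM) and MES buffer (25 mM, pH 6.1). Growth at 30 °C lasted some 18 h, up to an A600 of 0.5. The 4 low-iron cultures were given 10 µM ferrous iron and the 4 high-iron cultures 300 µM. The cultures of a condition were independent, and only this strain was studied. Arrays are numbered 1 to 4 within each condition in the order of deposition, and the numbers pair nothing.

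Signals are MAS5 intensities on a linear scale, brought by the authors to a common trimmed mean on every array (500.2 signal units). Such scaling conceals any shift in overall mRNA content, and in a culture fewer cells that make a transcript cannot be told apart from less transcript per cell. The iron labels were checked with FET3, the ferroxidase of high-affinity iron uptake, which read 4288 to 5200 units on the low-iron arrays and 1847 to 2177 on the high-iron arrays. The ratio of 3′ to 5′ probe sets for actin, a measure of RNA integrity, was 1.18 to 1.28 in low iron and 1.19 to 1.26 in high iron. Low-iron arrays 1 and 2 stand apart from low-iron arrays 3 and 4 in the genes described here, so results are also given without them.

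Between low and high iron few of the 58 genes differed beyond the spread between cultures. With limma, which estimates each gene's spread with help from all genes, and Benjamini-Hochberg adjustment over the 5412 genes tested, 9 of the 58 fell in low iron (15.5%) and none rose. At an unadjusted p under 0.05 there were 12 lower and 0 higher, where all 5412 genes gave 1482 lower and 1166 higher. Over all genes tested 39.4% were called, 22.7% lower and 16.8% higher in low iron (1226 and 907 genes). That split turned with another scaling of the arrays, to 1064 lower and 1209 higher after quantile normalization and 1072 lower and 1138 higher after median centring. The genes that fell were RRP17, RRP36, NOP53, UTP6, RRP7, RRP3, UTP7, UTP9 and RRP42, and their log2 changes ran from -0.91 to -0.24. Leaving out low-iron array 3 gave 19 calls and leaving out low-iron array 2 or high-iron array 1 gave 3. The count was 5 when high-iron array 2 was dropped and 4 when high-iron array 4 was. Over all 5412 genes tested, 1717 to 2306 were called with 1 array left out.

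The direction of the 58 changes leaned downwards, with 44 below 0 (75.9%, against 52.9% of all genes tested) and 14 above. Their median log2 change was -0.13, against -0.02 over all genes tested. Without low-iron array 1 the split was 32 below and 26 above and the median -0.05. It was 37 and 21 with median centring and 35 and 23 with array weights. In 4 genes, UTP6, RRP7, RRP3 and RRP42, the low-iron signals did not overlap the high-iron signals, and all 4 were lower. Over all genes tested 38.5% had no overlap, 21.8% lower and the rest higher. For the 49 uncalled genes the 95% interval of the log2 change lay inside -1 to 1 in all 49, inside -0.5 to 0.5 in 35 and inside -0.25 to 0.25 in 7. The intervals of most uncalled genes thus held small changes in either direction.

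**Figure D1:**
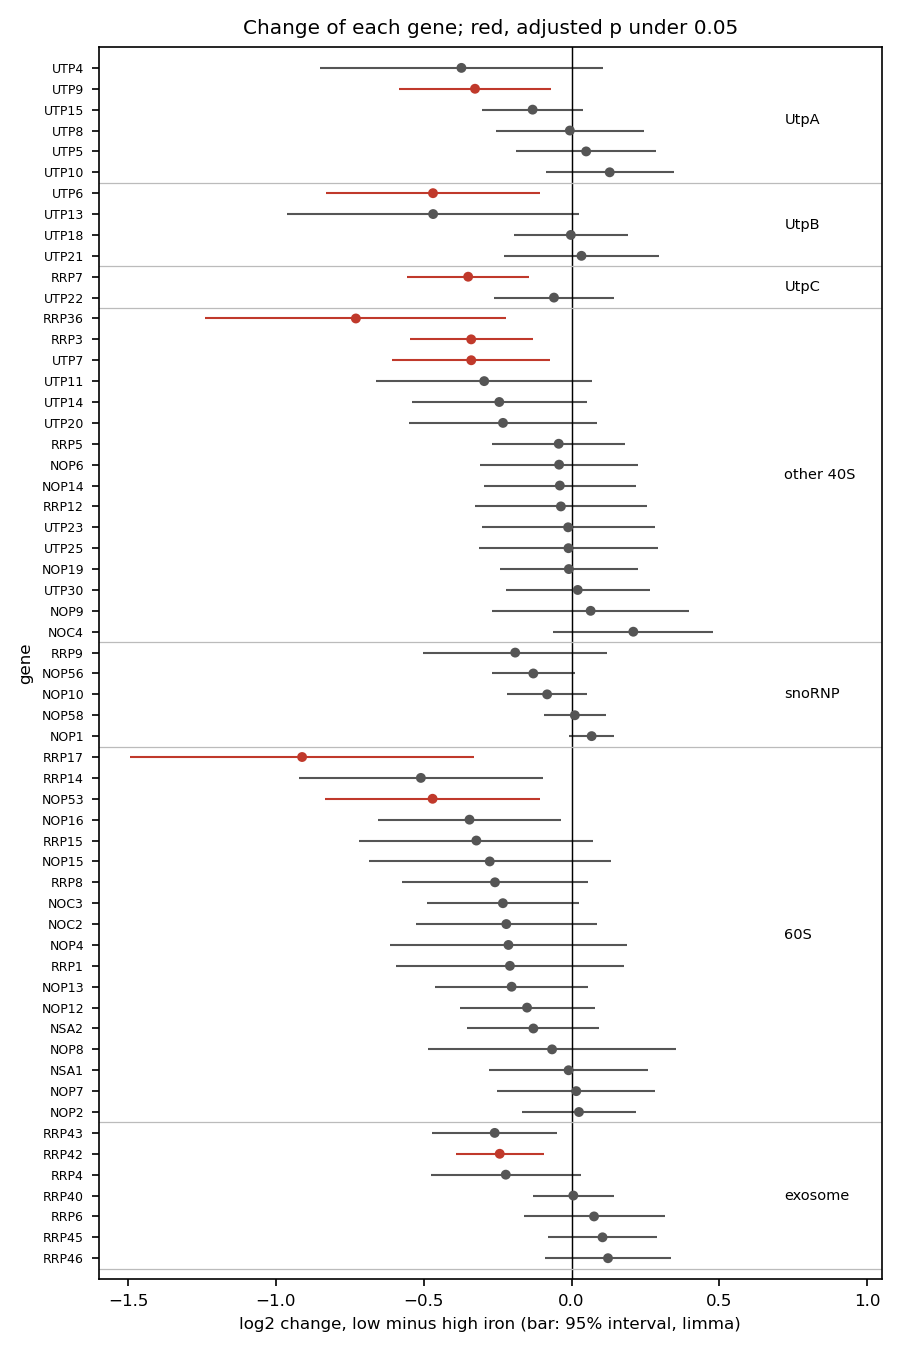
Log2 change of each of the 58 genes, low minus high iron, on the horizontal axis, with its 95% interval from limma, grouped by role. The 9 genes past the threshold are in red and all lie below 0, from RRP17 at -0.91 to RRP42 at -0.24, while most other intervals cross 0.

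The 58 genes varied together inside low iron. Each gene was set against its own mean over the high-iron arrays on the log2 scale. On low-iron array 1 the median of the 58 genes was -0.42 and on low-iron array 2 it was -0.24. On low-iron arrays 3 and 4 it was 0.10 and 0.02. The high-iron arrays had medians of 0.12, -0.06, -0.10 and 0.03. By median, then, low-iron arrays 1 and 2 were below all 4 high-iron arrays and low-iron arrays 3 and 4 were within their range.

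The pattern ran through nearly all members. On low-iron array 1, 57 of 58 genes were below their high-iron mean, and 54 were below all 4 high-iron arrays. On low-iron array 2, 47 were below the mean and 38 below all 4. On low-iron array 3 only 15 were below the mean, 5 were below and 21 above all high-iron arrays, and on low-iron array 4 the counts were 26, 13 and 21. Among all genes tested, 39.4%, 40.1%, 37.3% and 42.4% were below every high-iron array on low-iron arrays 1, 2, 3 and 4. The share of all genes tested above every high-iron array was 31.7% on each of low-iron arrays 3 and 4.

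Within low iron, array 1 gave the lowest signal for 52 of the 58 genes (89.7%), compared with 23.8% of all genes tested. Arrays 3 and 4 were both above arrays 1 and 2 for 51 genes (87.9%), compared with 22.7% of all genes tested. Among 3639 other genes whose mean signal lay in the same range, the shares were 24.9% and 24.1%. High iron had a smaller pattern of the same kind: array 1 was the highest of the 4 for 45 genes (77.6%), compared with 33.4% of all genes tested.

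Ribosomal RNA signals also differed between the low-iron arrays. The median signal of the 17 control probe sets for S. cerevisiae rRNA was 2682 and 2567 on low-iron arrays 1 and 2 and 3371 and 3707 on low-iron arrays 3 and 4. In high iron it was 3744 to 4321. Its part in the results was not tested.

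**Figure D2:**
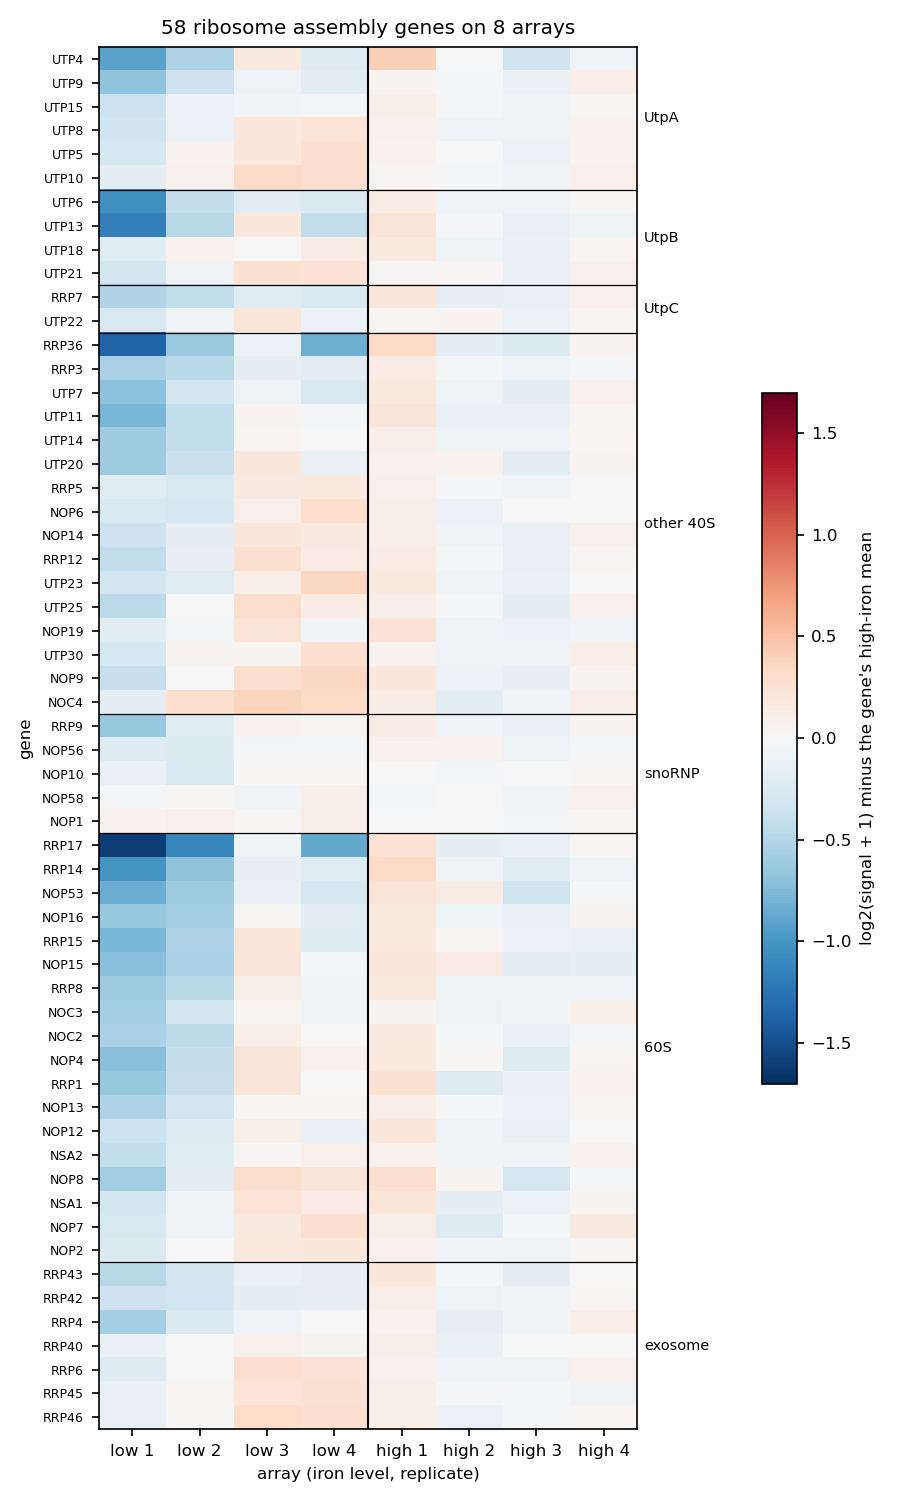
Signal of the 58 genes (rows, grouped by role) on the 8 arrays (columns), as log2(signal + 1) minus the gene's mean over the high-iron arrays; blue is lower and red higher. The first column, low-iron array 1, is below 0 for 57 of 58 genes, and low-iron arrays 3 and 4 are pale or red for most.

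UtpA is the subcomplex that binds the 5′ end of the precursor first, and its members are also called t-Utp proteins for their tie to rRNA transcription. Of its 6 genes named UTP here, 1 fell. UTP9 read 1189.7, 1502, 1810.4 and 1688 on low-iron arrays 1 to 4 and 1982, 1866, 1767 and 2069 on high-iron arrays 1 to 4. The low-iron range lay mostly below the high-iron range and overlapped it through array 3. Its mean was 1548 ± 270 against 1921 ± 132 (SD, n = 4), and the log2 change was -0.33 ± 0.116 (SE; limma adjusted p = 0.0465). This call was near the threshold and was lost without any of low-iron arrays 1 and 2 and high-iron arrays 1, 2, 3 and 4 (adjusted p = 0.0552 to 0.117), with median centring (0.0804) and with no intensity trend (0.0627).

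The other UtpA genes were not called. UTP4 had the largest change of the 6, with 395, 519, 831 and 641 in low iron and 983, 749, 589 and 707 in high iron. Both conditions were widely spread, and its log2 change of -0.37 had a 95% interval of -0.85 to 0.11 (adjusted p = 0.195 by limma). It passed without low-iron array 3, at -0.55 (adjusted p = 0.0398). UTP8, which in yeast also takes part in the nuclear export of tRNA, read 1273, 1500.4, 1821 and 1877 in low iron and 1690.5, 1534, 1535 and 1665 in high iron. The low-iron arrays lay on both sides of the high-iron range, so the means were nearly equal (1618 ± 284 and 1606 ± 83.2; log2 change -0.01). UTP15 had a log2 change of -0.13.

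UTP5 and UTP10 had positive changes. UTP5 read 2021, 2591, 2831 and 3002 in low iron and 2589, 2473, 2334 and 2596 in high iron, with a log2 change of 0.05. UTP10, a large repeat protein, read 1305, 1537, 1824 and 1776 in low iron and 1476, 1425, 1398 and 1544 in high iron. Its arrays 3 and 4 were above the high-iron range and array 1 below it. The log2 change of UTP10 was 0.13 over all arrays and 0.23 without low-iron array 1, where it passed (adjusted p = 0.0262).

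UtpB, the subcomplex that binds next to UtpA, has 4 genes named UTP here, of which 1 fell. UTP6 read 555, 861, 1009.8 and 966 in low iron and 1249, 1098, 1078 and 1157 in high iron. Every low-iron array was below every high-iron array, with array 1 far below the others. The mean was 848 ± 205 against 1146 ± 76.9 (SD, n = 4), and the log2 change was -0.47 ± 0.162 (limma adjusted p = 0.0423). Leaving out low-iron array 2 or any of high-iron arrays 1, 2, 3 and 4 ended this call (adjusted p = 0.0654 to 0.104). Median centring and a fit with no intensity trend ended it too (0.0604 and 0.0562).

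UTP13, a WD-repeat protein of UtpB, had the same log2 change of -0.47 and was not called (adjusted p = 0.118 by limma; 95% interval -0.96 to 0.03). It read 536, 869, 1354 and 896 in low iron and 1396, 1181, 1098 and 1144 in high iron. Low-iron array 3 lay inside the high-iron range, and without it the change was -0.68 (adjusted p = 0.00995). UTP18, which docks the exosome's helicase Mtr4, read 851, 1018, 978 and 1071 in low iron against 1099.5, 926, 900.0 and 998 in high iron. The arrays overlapped throughout, with a 95% interval of the log2 change of -0.19 to 0.19. UTP21 read 953, 1136, 1419.6 and 1400.4 in low iron and 1204, 1196, 1093 and 1246 in high iron, again on both sides (log2 change 0.03).

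UtpC joins later and holds UTP22 and RRP7 with casein kinase subunits. RRP7 read 698, 744, 865 and 823 in low iron and 1133, 905, 909 and 1046 in high iron, without overlap. Its mean fell from 998 ± 111 to 782 ± 75.2 (SD, n = 4), and the log2 change was -0.35 ± 0.0933 (limma adjusted p = 0.0135), and the call held with each of the 8 arrays left out in turn. UTP22 in the same complex read 960.0, 1105, 1336 and 1085 in low iron and 1188, 1194, 1084 and 1179 in high iron. The high-iron range lay inside the low-iron range, with a log2 change of -0.06 (95% interval -0.26 to 0.14; adjusted p = 0.632). The difference between these complex partners was not tested.

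The 16 other 40S factors include scaffolds and helicases, and 3 of them fell. RRP36, needed for the early cuts of the precursor, read 157, 259.9, 377 and 226 in low iron and 511, 362, 343 and 416 in high iron. Low-iron array 3 overlapped the high-iron arrays and the other 3 were below them. Its mean was 255 ± 92.1 against 408 ± 75.0 (SD, n = 4), and the log2 change was -0.73 ± 0.229 (limma adjusted p = 0.0286). The call was lost without low-iron array 2 or 4 or high-iron array 1 or 4 (adjusted p = 0.0525 to 0.0813).

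RRP3, a DEAD-box helicase, read 759, 807, 989 and 968 in low iron and 1223, 1083, 1052 and 1080.1 in high iron, without overlap. The log2 change was -0.34 ± 0.0936 (limma adjusted p = 0.0159), and the call held without each array in turn. UTP7, a WD-repeat protein of the processome, read 653, 852, 995 and 875 in low iron and 1179.6, 999, 952 and 1107 in high iron. The ranges overlapped through low-iron array 3 and high-iron array 3. Its log2 change of -0.34 (adjusted p = 0.0467) was the called change nearest the threshold, and the call was lost without low-iron array 1, 2 or 4 or high-iron array 1, 2 or 4 (adjusted p = 0.0631 to 0.123). It was also lost with median centring, no intensity trend, array weights or a block for a number in the labels of unstated meaning (0.0553 to 0.0704).

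The remaining 13 genes of this role had log2 changes from -0.30 for UTP11 to 0.21 for NOC4. NOC4, which works with NOP14 on the 40S precursor, had the largest positive change of all 58 genes. It read 842, 1159, 1234 and 1189 in low iron and 1036, 837, 903 and 1024 in high iron. All low-iron arrays but array 1 were above the high-iron range (95% interval -0.06 to 0.48; limma adjusted p = 0.197). Without low-iron array 1 it passed (adjusted p = 0.00782). NOC4 lies next to RRP15, a 60S factor with a change of -0.32, in the RefSeq gene order of assembly R64, the only members that are direct neighbours there.

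NOP19, which acts with UTP25, had nearly equal means, with 403, 449, 538 and 443 in low iron and 544, 430.5, 430.0 and 440.2 in high iron. A single array in each condition stood above the other 3, and the means were 458 ± 56.9 and 461 ± 55.4. RRP5, an RNA-binding scaffold for both subunits, had a change of -0.04, as had NOP6, NOP14 and RRP12. UTP23 and UTP25 had changes of -0.01. UTP25 read 818, 1103, 1363 and 1209 in low iron and 1194, 1098, 995 and 1173 in high iron, so that the low-iron arrays lay on both sides of the high-iron range.

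UTP14, which activates the helicase Dhr1, and UTP20, a large scaffold, had changes of -0.24 and -0.23. UTP20 passed without low-iron array 3 (log2 change -0.37, limma adjusted p = 0.023). NOP9, an RNA-binding repeat protein, read 579, 767, 932 and 972 in low iron and 865, 713, 693 and 786 in high iron (log2 change 0.06). UTP30 read 775, 988, 984 and 1160.4 in low iron and 995, 897, 899 and 1027 in high iron (log2 change 0.02). In both genes array 4 was the highest in low iron and array 1 the lowest.

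The 5 snoRNP genes had the lowest median SD in low iron of the 7 roles, 0.11 on the log2 scale. NOP1 is fibrillarin, the methyltransferase of box C/D snoRNPs, NOP56 and NOP58 are its core partners, NOP10 belongs to box H/ACA snoRNPs, and RRP9 is specific to the U3 snoRNA. None was called, and none passed at an unadjusted p under 0.05 in the limma fit. NOP1 read 5006, 5084, 4859 and 5182 in low iron and 4768, 4791, 4752 and 4888 in high iron, and the ranges overlapped through low-iron array 3 alone. NOP58 read 3409, 3494, 3320.1 and 3706 in low iron and 3401, 3428, 3347 and 3640.3 in high iron. Here low-iron array 1 was not the lowest, and the 95% interval of the log2 change was narrow, at -0.09 to 0.12.

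NOP10 read 3637, 3297, 4004 and 4005 in low iron and 3978, 3864, 3918 and 4014 in high iron. Its low-iron arrays 1 and 2 were below the high-iron range with changes too small to pass (log2 change -0.08). NOP56 had a change of -0.13, and with quantile normalization it passed at -0.17 (adjusted p = 0.0485). RRP9 followed the majority, with 747, 1014, 1227 and 1199.9 in low iron and 1277, 1122, 1087 and 1214 in high iron, and a log2 change of -0.19 (95% interval -0.50 to 0.12). The brightest probe set of an array read 6597 to 7706. Differences can be compressed near this level. NOP1, NOP10 and NOP58 read over 3000 on every array but stayed below it, and the part of compression in their low spread was not tested.

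The 60S factors showed the low-iron split in every member. In all 18 genes low-iron array 1 was the lowest of the 4 and arrays 3 and 4 were above arrays 1 and 2, and 16 of the 18 log2 changes were negative. The median over the 18 was -0.60 on low-iron array 1 and -0.40 on array 2, against 0.11 and -0.02 on arrays 3 and 4. Only RRP17 and NOP53 passed the test.

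RRP17, a 5′ exonuclease, had the largest change and the largest low-iron spread of all 58 genes. It read 198, 279.7, 577 and 331 in low iron and 719, 544, 552 and 619.9 in high iron. Low-iron array 3 fell within the high-iron range and was 2.91 times the signal of array 1. The mean was 347 ± 163 against 608 ± 80.9 (SD, n = 4), and the log2 change was -0.91 ± 0.261 (limma adjusted p = 0.0191). The call was lost without low-iron array 2 or high-iron array 1 (adjusted p = 0.0555 and 0.0556).

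NOP53, which recruits the exosome to the 60S precursor, read 388, 454, 639 and 566 in low iron and 821, 761, 549 and 686 in high iron. Its high-iron array 3 lay below low-iron arrays 3 and 4. The log2 change was -0.47 ± 0.164 (limma adjusted p = 0.0437), and the call was lost without low-iron array 1 or 2 or high-iron array 1, 2 or 4 (adjusted p = 0.082 to 0.118). It was also lost with quantile normalization, median centring, no intensity trend, array weights or that block (0.0567 to 0.108). RRP14, a nucleolar factor of both subunits, missed the threshold with a larger change, -0.51 (adjusted p = 0.0513; 95% interval -0.92 to -0.10). It read 723, 897, 1309 and 1254 in low iron and 1834, 1381, 1256 and 1378 in high iron, where array 1 stood well above the rest. It passed when low-iron array 3 or 4 was left out (adjusted p = 0.0193 and 0.0339) and with quantile normalization (0.0464).

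Among the other 60S genes, NOP16, RRP15, NOP15, RRP8 and NOC3 passed only when low-iron array 3 was left out of the 8 single-array omissions, with log2 changes of -0.47, -0.50, -0.43, -0.38 and -0.32 in that fit. RRP8 is a methyltransferase of the large rRNA, and NOC3 and NOC2 escort 60S precursors within the nucleus. NOP15, an RNA-binding factor, gives an example of the split: 1586 and 1779 on low-iron arrays 1 and 2, 2980.5 and 2540.2 on arrays 3 and 4, and 2309 to 2983 in high iron. NSA1 read 689.8, 806, 1008 and 942 in low iron and 986, 774, 800.1 and 889 in high iron, and its change was the smallest of the role (-0.01). NOP2, an rRNA methyltransferase, read 1971, 2327, 2614 and 2628 in low iron and 2459, 2258, 2239.5 and 2364 in high iron (log2 change 0.03). NOP7, which works with Erb1 and Ytm1, read 1026, 1166, 1376 and 1493 in low iron and 1330.0, 1065, 1208 and 1373 in high iron (log2 change 0.02). These were the positive changes of the role, and in both genes array 1 was the lowest low-iron array all the same. The remaining NOC2, NOP4, RRP1, NOP13, NOP12, NSA2 and NOP8 had changes from -0.22 to -0.07, none called.

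The 7 exosome genes went both ways. The ring subunit gene RRP42 fell, with 1393, 1415, 1582 and 1616 in low iron and 1914, 1677, 1715 and 1798 in high iron. The ranges did not overlap, and the mean fell from 1776 ± 105 to 1502 ± 114 (SD, n = 4), and the log2 change was -0.24 ± 0.0669 (limma adjusted p = 0.0158). This call held without each array in turn. RRP43, another ring subunit, read 860.1, 966, 1109.5 and 1086 in low iron and 1359, 1169, 1081 and 1200.0 in high iron, and missed the threshold (log2 change -0.26, adjusted p = 0.0513). It passed when low-iron array 3 or 4 or high-iron array 3 was left out (adjusted p = 0.0291, 0.0446 and 0.0416).

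The ring subunits RRP45 and RRP46 and the nuclear exonuclease RRP6 had positive changes of 0.10, 0.12 and 0.08, none past the threshold. RRP45 read 1889, 2086, 2402 and 2448 in low iron and 2184, 2014, 2019.5 and 1949.9 in high iron. RRP6 read 771, 888, 1092 and 1067 in low iron and 946, 856, 842 and 947 in high iron. In both genes low-iron arrays 3 and 4 were above the high-iron range and array 1 below it. RRP46 read 999, 1089.5, 1335 and 1309 in low iron and 1159, 1003, 1056 and 1099.9 in high iron. Its arrays 3 and 4 lay above the high-iron range, while array 1 lay just below it. RRP40, a cap subunit, varied little in either condition, with 1723, 1876, 1979.8 and 1916 in low iron and 1999.6, 1719, 1879.8 and 1865 in high iron. RRP4, also in the cap, had a log2 change of -0.22 (adjusted p = 0.145).

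**Figure D3:**
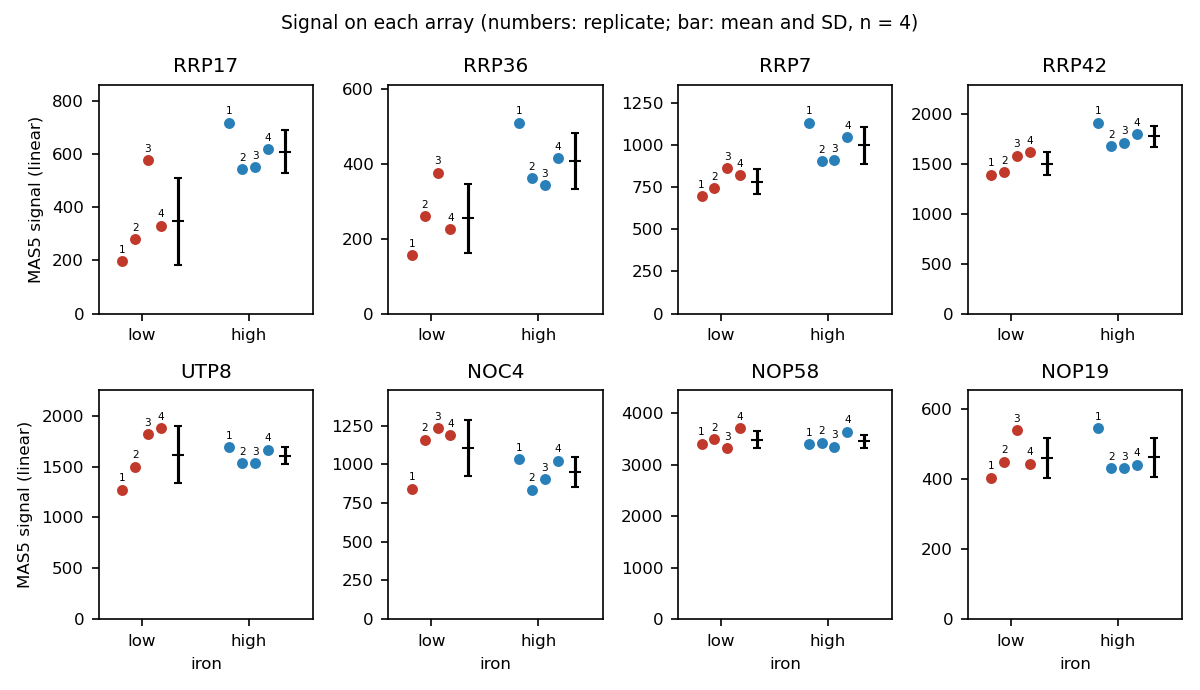
MAS5 signal of 8 genes on each array (points, numbered by replicate; low iron red, high iron blue; linear axis from 0) with mean and SD, n = 4. RRP7 and RRP42 do not overlap between conditions, RRP17 and RRP36 overlap through low-iron array 3, and UTP8 has nearly equal means with the low-iron arrays on both sides of the high-iron ones.

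The spread between cultures was measured for each gene as the SD of log2(signal + 1) over the 4 arrays of a condition. The median over the 58 genes was 0.26 in low iron and 0.11 in high iron, where all genes tested had 0.12 and 0.08. The SD was larger in low iron for 56 of the 58 genes (96.6%), against 74.5% of all genes tested. The wide low-iron spread was not particular to the 58 genes. For 98 assembly factors with other names, described below, the median SD was 0.27 in low iron and 0.13 in high iron. It was larger in low iron for 93 of these 98 (94.9%). The typical member ranked at percentile 86.0 of all genes tested for the SD in low iron and at percentile 70.6 for that in high iron.

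In linear terms, the highest low-iron array was over 1.5 times the lowest for 26 of the 58 genes, against 13.1% of all genes tested. In high iron this held for 1 of the 58, UTP4, against 3.44% of all genes tested. The widest low-iron SDs on the log2 scale were those of RRP17 (0.64), UTP13 (0.55) and RRP36 (0.52), and the widest high-iron SDs were those of UTP4 (0.31), RRP36 (0.25) and NOP53 (0.25). The median SE of the log2 change was accordingly 0.12 for the members and 0.07 for the 3639 other genes in the same range of signal, 40.8% of which were called.

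**Figure D4:**
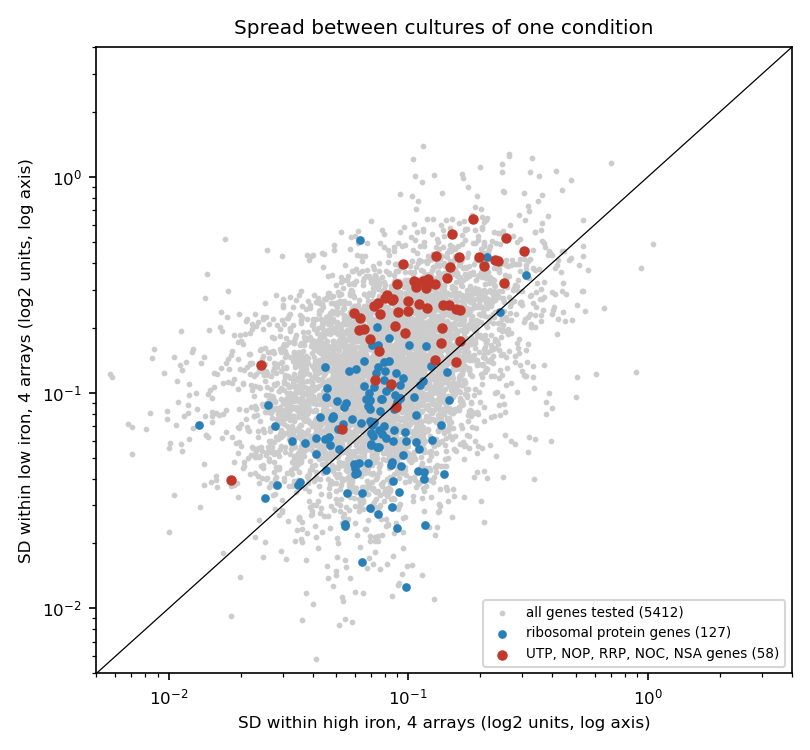
SD over the 4 arrays of high iron (horizontal) against the SD over the 4 arrays of low iron (vertical), in log2 units on log axes, 1 point per gene, with the line of equality. The 58 genes in red lie above the line in 56 cases and have a median low-iron SD of 0.26, while the ribosomal protein genes in blue have a median of 0.07.

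The fit was repeated without low-iron arrays 1 and 2 and, in turn, without low-iron arrays 3 and 4. These pairs stand apart in the values of the same genes, so the direction in which each omission moves the changes follows from the choice of arrays. The calls made in that direction follow from it too. The counts and adjusted p of both fits are therefore given as description and are no test of iron. Without arrays 1 and 2, over the 2 remaining low-iron arrays and the 4 high-iron arrays the median log2 change of the 58 genes was 0.05 in place of -0.13, and 39 changes were positive. In this fit 10 genes were higher in low iron (UTP5, UTP8, UTP10, UTP21, NOC4, NOP2, NOP9, RRP6, RRP45 and RRP46) and 1, UTP6, was lower, where 14.9% and 23.9% of all genes tested were called in these directions and 38.8% in either. Those 10 changes ran from 0.17 for NOP2 to 0.36 for NOC4. RRP7, RRP3 and RRP42 kept negative changes of -0.24, -0.18 and -0.15 but were not called (limma adjusted p = 0.0714, 0.0688 and 0.0925). Of the 9 calls over all 8 arrays, 1 was also made in this fit, that of UTP6, which was lost with median centring and with no intensity trend. Without low-iron arrays 3 and 4 the median was -0.30, and 38 of the 58 genes were called (limma), all lower, where 26.4% of all genes tested were lower, 22.9% higher and 49.3% called in either direction.

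The same values were taken for ribosome assembly genes with other names. Of 121 such genes 6 fell and 2 rose (6.61% called), and their median log2 change was -0.05. Leaving out low-iron array 1 gave 13 calls, and leaving out array 3 gave 17. Of all genes tested, 39.0% were called without low-iron array 1, and 1717 to 2306 genes with any 1 array left out. Among the 98 assembly factors in this list, leaving out RNA polymerase I and regulators, only RCL1, a processome protein, passed. It read 648, 774, 940.3 and 914 in low iron and 1198, 952, 993 and 1198 in high iron, with a log2 change of -0.41 (limma adjusted p = 0.0245), a call lost without low-iron array 2 or high-iron array 1 or 4 (0.0629 to 0.0726). None of the 50 60S factors with other names passed (3 at an unadjusted p under 0.05). Low-iron arrays 3 and 4 were above arrays 1 and 2 for 90 of the 98 genes (91.8%), and their median against the high-iron mean was -0.35, -0.16, 0.17 and 0.14 on low-iron arrays 1 to 4.

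Transcription of rRNA is the first step of the pathway. Of 14 genes for RNA polymerase I and its factors 4 fell and 1 rose (35.7% called), a share near that of all genes tested (39.4%). RRN3, the initiation factor that recruits RNA polymerase I, read 727, 752, 889 and 820.2 in low iron and 1259.8, 1186, 1155 and 1117 in high iron, well apart. Its log2 change was -0.57 ± 0.0732 (limma adjusted p = 0.000204), and it was called in all 20 alternative fits. RRN9, of the upstream activation factor, had a change of -0.40 (adjusted p = 0.0114), and RPA14, a polymerase subunit, one of 0.29 (adjusted p = 0.00714).

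Of 9 regulators of ribosome synthesis genes, 1 rose and 1 fell. DOT6, a repressor that binds the PAC element found before many assembly genes, read 1581, 1634, 1515 and 1514 in low iron and 1209, 1359, 1238 and 1288 in high iron, a log2 change of 0.29 (limma adjusted p = 0.00194). STB3, which binds the RRPE element of the same promoters, had a change of -0.31 (adjusted p = 0.00687). Low-iron array 1 was not the lowest for either gene, and the SDs of DOT6 and STB3 in low iron were 0.053 and 0.044 on the log2 scale. Other regulators did show the low-iron split. IFH1 read 533, 841, 1120 and 1094 on low-iron arrays 1 to 4 and TOD6 read 710, 962, 1269 and 1122, with low-iron SDs of 0.50 and 0.36. Among the 9 regulators array 1 was the lowest in low iron for 3, and arrays 3 and 4 were above arrays 1 and 2 for 3. HAS1, a helicase of both subunits, and CRF1, a corepressor of ribosomal protein genes, had positive changes of 0.26 and 0.30 that did not pass (adjusted p = 0.0848 and 0.0697). HAS1 passed without low-iron array 1 (0.0462) or high-iron array 1 (0.028), and CRF1 without low-iron array 2 (0.0317). CRF1 also passed with quantile normalization, where its change was 0.63 (0.00247), with median centring (0.0478) and with no intensity trend (0.025). Its signals were weak, at 40.8, 31.9, 39.8 and 38.5 in low iron and 27.4, 29.9, 31.6 and 32.7 in high iron. With pseudocounts of 16 and 64 its change shrank to 0.21 and 0.11 and did not pass (limma adjusted p = 0.059 and 0.0569).

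Cytosolic ribosomal protein genes are the other large gene group of ribosome synthesis. Of 127 genes 2 rose and 2 fell (3.15% called), with a median log2 change of 0.04. Their medians against the high-iron mean were 0.08, 0.05, -0.03 and 0.08 on low-iron arrays 1 to 4. Low-iron array 1 was the lowest for 5 of the 127 (3.94%), and arrays 3 and 4 were above arrays 1 and 2 for 3 (2.36%). Many of these genes read near the top of the array, with a median of 4963 units, so their differences can be compressed, and the difference from the assembly genes was not tested.

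**Figure D5:**
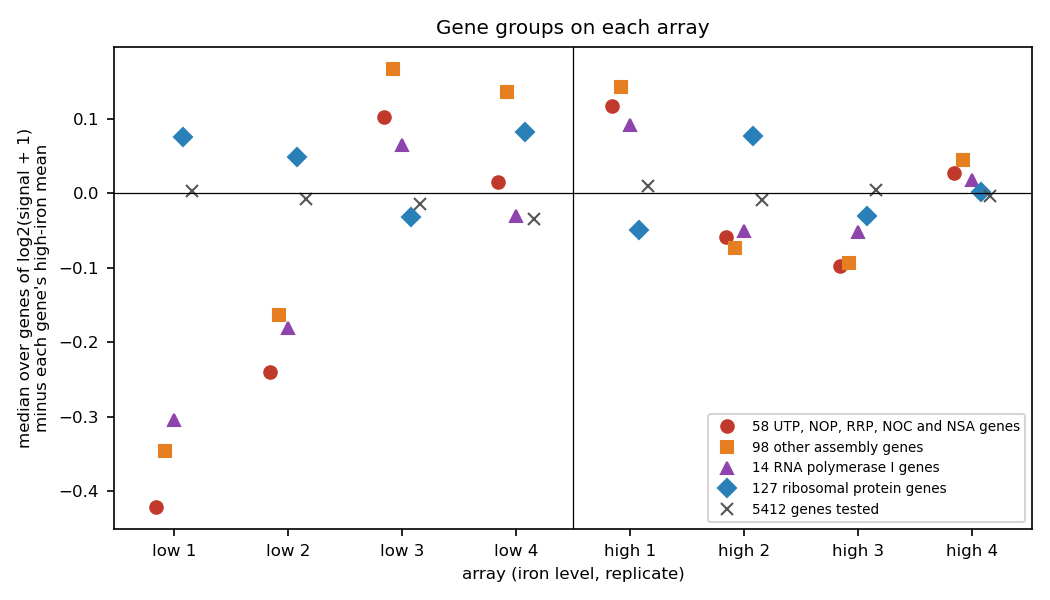
Median over the genes of a group of log2(signal + 1) minus each gene's high-iron mean (vertical) on each array (horizontal), for 5 groups, with points shifted sideways for sight. Assembly and RNA polymerase I genes are lowest on low-iron arrays 1 and 2 (members -0.42 and -0.24), while ribosomal protein genes and all genes tested stay within 0.1 of 0.

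The array also carries Schizosaccharomyces pombe probe sets, and 18 of them have symbols of the same 5 name families. On the 8 arrays they read 0.0652 to 7.71 units, with a median of mean signals of 1.78, compared with mean signals of 331 to 4916 units for the 58 S. cerevisiae genes. The members' signals were thus above the level of probe sets for same-named genes of another yeast.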

How the data were processed

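Total RNA of 8 cultures was labelled with biotin and hybridised to Affymetrix arrays that cover both S. cerevisiae and S. pombe, as the labels' protocols and the platform table state. The deposited values are signal intensities on a linear scale, made with MAS5 per the submitters' processing notes. Other MAS5 settings: not given in the sources used here. Every array had a mean of 500.2 after trimming 2% at each end, so no further scaling was applied. The array has 10928 probe sets, and 5498 of them were paired with 1 S. cerevisiae gene by the platform table and RefSeq assembly R64, used for names and neighbours only. The brightest probe set per gene was taken. Tests were limited to genes with a mean signal over 5.48, the 95th percentile of 1746 S. pombe probe sets, which kept 5412 of 5449 genes. The number of arrays limits the precision.

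Low and high iron were compared on log2(signal + 1) with limma 3.58.1 in R 4.3.3 (eBayes with an intensity trend, two-sided, Benjamini-Hochberg adjustment, threshold 0.05). Differences are on that log2 scale. On simulated data with 5412 genes the procedure recovered 48% of genes changed by 0.25, 84% by 0.5, 98% by 1 and 100% by 2, and called 11 of 5212 unchanged genes (0.211%). The simulated noise was independent between genes and had the same SD in both conditions, and the changed genes came from all genes tested. The members varied together, and their median SE was 0.12 against 0.08 over all genes tested. Recovery for genes like the members was therefore not measured. Plots came from matplotlib 3.10.9 (Python 3.11.15).

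The 58 genes, their roles and the list of 121 other genes were chosen with earlier results of these data known, and the ribosomal protein genes, taken by name pattern, were added after the data were seen. Values on every array are given for the members with the largest and smallest change in each role, the 3 brightest and 3 dimmest, the 3 most variable in each condition, those nearest the threshold and those with a positive change. NOP15, UTP25, RRP3 and RRP42 were added as examples after their values were seen. Of the other list, the 4 genes with the lowest adjusted p in each direction are named, and IFH1 and TOD6 were added after their values were seen. Promoter and protein sequences were not used here. Alternatives were quantile normalization or median centring of the arrays, pseudocounts of 16 and 64, a filter at the 99th percentile or none, array weights, no intensity trend, averaging a gene's probe sets, each array left out, low-iron arrays 1 and 2 or 3 and 4 left out, and a block for a number in the labels whose meaning is not stated.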

Additional observations from a re-analysis of the deposited data

Results flagged for a closer look

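In 4 of the 116 sets of 4 arrays (58 genes in 2 conditions) a single array lay far from the other 3. All 4 were in high iron, and chance alone gives such a gap in about 1 of 20 sets. RRP8 read 1153 on high-iron array 1 and 972 to 992 on the others. NOP19 read 544 on high-iron array 1 and 430.0 to 440.2 on the others. UTP20 read 1261 on high-iron array 3 and 1476 to 1507 on the others. UTP22 read 1084 on high-iron array 3 and 1179 to 1194 on the others. High-iron array 1 was the highest of the 4 for 45 of the 58 genes, and high-iron array 3 the lowest for 39. Their part in these gaps was not tested.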

How the results depend on the processing

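The fits comprised the main one and 20 alternatives. The 9 calls among the 58 genes became 5 with median centring, 5 with no intensity trend and 38, all lower, with low-iron arrays 3 and 4 left out, where 49.3% of all genes were called. Leaving out 1 array at a time gave 3 to 19 calls, and leaving out low-iron arrays 1 and 2 gave 11, of which 10 were higher and 1 was also among the 9. Of all genes tested, 38.8% were called without low-iron arrays 1 and 2, and 14.9% were higher. Low-iron arrays 1 and 2 stand apart from arrays 3 and 4 in the values of these same genes. The direction in which leaving out either pair moves the changes, and the calls in that direction, thus follow from the choice of arrays, and the adjusted p of these fits are descriptive only. The cause of that difference, and of the other shifts, was not tested. The median log2 change of the 58 genes ran from -0.18 to -0.05 with 1 array left out, was -0.09 with median centring and -0.30 with low-iron arrays 3 and 4 left out, and turned to 0.05 with low-iron arrays 1 and 2 left out. UTP8 also turned in that fit, to 0.20 (limma adjusted p = 0.0246). None of the 58 genes was called in every fit and 11 were called in none. RRP7, RRP3 and RRP42 were each called in 19 of the 20 alternatives, all but the fit without low-iron arrays 1 and 2. The 8 calls among the 121 other assembly genes became 30 with low-iron arrays 1 and 2 left out (26 higher), 62 with low-iron arrays 3 and 4 left out (60 lower) and 6 to 17 with 1 array left out. Without low-iron arrays 3 and 4, 26.4% of all genes tested were lower and 49.3% were called in either direction. Calls over all genes ran from 1717 to 2306 with 1 array left out. A block for the numbers in the labels, whose meaning is not stated, gave 7 calls among the 58 genes and 1907 over all genes. No paired analysis was possible because the labels number the arrays through both conditions and give no shared replicate numbers. Whether compression of bright signals limits what can be seen for NOP1, NOP10 and NOP58 was not tested.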
